A study of Mus musculus with 10 samples.

Results

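Insulin is made as a precursor, proinsulin, that the β-cell cuts and trims inside its secretory granules. The genes described here are the mouse insulin genes *Ins1* and *Ins2*, the granule proteases that cut the precursor (*Pcsk1* and *Pcsk2*), the enzyme that trims the cut ends (*Cpe*), the inhibitor of the first protease (*Pcsk1n*), the chaperone of the second (*Scg5*) and the enzyme that amidates the ends of other islet peptides (*Pam*). They were taken by name, and each was read from the array row whose annotation names that gene alone. Of the 8 genes, 6 had such a row among the 32814 array rows that name at least 1 gene. *Ins1* and *Pcsk2* had no row of their own and none shared with other genes in the annotation used, so they were not analysed here.

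RNA came from hand-picked pancreatic islets of male mice, given as C57BL/6 in the labels and as C57Bl/6J in the methods, with 1 Affymetrix array per islet sample. The labels give an age of 10 weeks. The methods describe mice of 10 weeks that then had some weeks of acclimatization before they were killed, so the age at islet isolation may have been higher. There were 5 arrays at ZT20, from mice on an inverted light cycle by the methods, and 5 arrays at ZT8, from mice on a normal light cycle. The labels do not mention the inverted cycle: they place time 0 at 7 in the morning for all 10 samples, and the titles write CT20 and CT8 in place of ZT. Zeitgeber time (ZT) counts the hours from lights on, so ZT20 falls in the dark and active phase of a mouse and ZT8 in the light and resting phase. By the methods the mice of both groups were killed at the same clock hour, so the labels and the methods differ on how ZT20 was reached. Before RNA extraction the islets were cultured, for 24 h by one label and overnight by another. With the inverted cycle used for the ZT20 mice alone, as the methods have it, time of day and housing cannot be told apart on these arrays. A heading in the supplement speaks of 5 animals per genotype, although the labels give 1 strain and no genotypes, the sources do not tie each array to an animal, and p-values measure the spread between these samples. Signals are given on the log2 scale as the authors normalized them, and differences are ZT20 minus ZT8, so that 1 unit is a doubling and a positive value means more signal at ZT20.

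In the β-cell, proinsulin is folded in the endoplasmic reticulum and packed into immature granules. There the convertase PC1, encoded by *Pcsk1*, cuts mainly at the junction of the B-chain and C-peptide, and PC2, encoded by *Pcsk2*, mainly at the junction of the C-peptide and A-chain. Carboxypeptidase E then removes the basic residues left at the cut ends. ProSAAS, the product of *Pcsk1n*, can inhibit PC1, and 7B2, the product of *Scg5*, is needed for PC2 to mature. These proteins are shared with the other endocrine cells of the islet, which process glucagon, somatostatin and further prohormones, and with neurons. The study measured hormone release and content at both times, and the comparison asks whether the transcripts for making and processing insulin differ between them.

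The upstream sequences of *Pcsk1* and *Scg5* are shown because these are measured genes whose windows hold letters of the cAMP response element (CRE), through which cAMP signalling can act on transcription. They are the 250 bases before the annotated start in RefSeq (build GRCm38.p6), written 5′ to 3′ in the direction of the gene, with the CRE letters TGACG, on either strand, in capitals.
Pcsk1, chr13:75089607-75089856, plus strand: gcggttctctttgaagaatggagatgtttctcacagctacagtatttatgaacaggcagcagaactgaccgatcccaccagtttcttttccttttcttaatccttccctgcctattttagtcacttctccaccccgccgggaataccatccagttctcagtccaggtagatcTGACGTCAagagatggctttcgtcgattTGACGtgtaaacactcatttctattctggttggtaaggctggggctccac
Scg5, chr2:113829092-113829341, minus strand: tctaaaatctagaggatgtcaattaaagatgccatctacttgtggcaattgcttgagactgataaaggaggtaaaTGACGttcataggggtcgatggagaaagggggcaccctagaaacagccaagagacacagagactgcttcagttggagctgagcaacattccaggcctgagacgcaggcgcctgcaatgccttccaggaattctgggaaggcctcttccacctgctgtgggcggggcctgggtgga

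In *Pcsk1* the first capitals spell a full CRE, TGACGTCA, whose first letter lies 78 bases before the start. That match contains TGACG on each strand, and a further TGACG lies 50 bases before the start. *Scg5* holds 1 match to TGACG, 175 bases before the start, and the window of *Pcsk2* holds 1 on the opposite strand, 34 bases before the start. Among 32851 upstream windows of this length, 17.8% hold TGACG on either strand and 1.55% the full CRE, and a match describes letters only. The motifs through which clock proteins act were searched in the same way, namely the E-box CACGTG, its variant CACGTT, the D-box TTATGTAA and the REV-ERB core letters AGGTCA. Their letters were in none of the windows of *Pcsk1*, *Scg5*, *Pcsk1n*, *Pam*, *Pcsk2* and *Ins1*, against 6.02%, 3.85%, 0.819% and 14% of all windows. Windows of *Ins2* and *Cpe* were not used here.

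None of the 6 measured genes passed the test between ZT20 and ZT8. The test was limma, which compares the groups with each gene's own spread drawn toward a value estimated from all genes. Benjamini-Hochberg adjustment was over all gene rows, with a threshold of 0.05. Of all gene rows 0.744% passed, 58 higher and 186 lower at ZT20 (64 higher and 539 lower once array medians were set equal), and the adjusted p of the 6 genes ran from 0.305 to 0.869. The number of rows that passed, 244, was 427 without ZT20 replicate 1 and between 1 and 54 without any other single array, while none of the 6 genes passed in any of these cases. None of the 6 lay at an unadjusted p under 0.05 by limma, where 18.5% of all rows did, and in none were the 5 arrays of ZT20 clear of the 5 arrays of ZT8, which held for 5.92% of all rows. By the methods' t-test, which allows unequal variances, *Cpe* alone lay at an unadjusted p under 0.05, beside 16.6% of all rows, and none of the 6 passed after adjustment, beside 0.00609% of all rows. Of the 6 differences, 3 were positive and 3 negative, with a median of -0.01, beside a median of 0.03 over all gene rows.

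*Ins2* encodes preproinsulin 2, the form of mouse insulin whose gene has the layout found in other mammals. Its log2 signals at ZT20 were 13.22, 13.23, 13.21, 13.12 and 13.19 in replicates 1 to 5, against 13.09, 13.20, 13.17, 13.20 and 13.22 at ZT8. The groups overlapped almost fully, and the lowest array of all was ZT8 replicate 1. The mean was 13.19 ± 0.041 (SD, n = 5) at ZT20 and 13.18 ± 0.050 at ZT8, a difference of 0.02 (SE 0.045, limma adjusted p = 0.87). The 95% confidence interval, -0.08 to 0.11, corresponds to a change between -5.46% and 8.11% on the signal scale. *Ins2* lay only 0.42 to 0.57 below the brightest row of each array, and 9 gene rows were brighter on average. Within-group SDs were smaller among bright rows, with a median of 0.067 in the 199 rows from 12 upwards against 0.10 over all rows, and the interval holds for signal only. How far the signal of *Ins2* was limited by saturation was not tested.

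**Figure D1:**
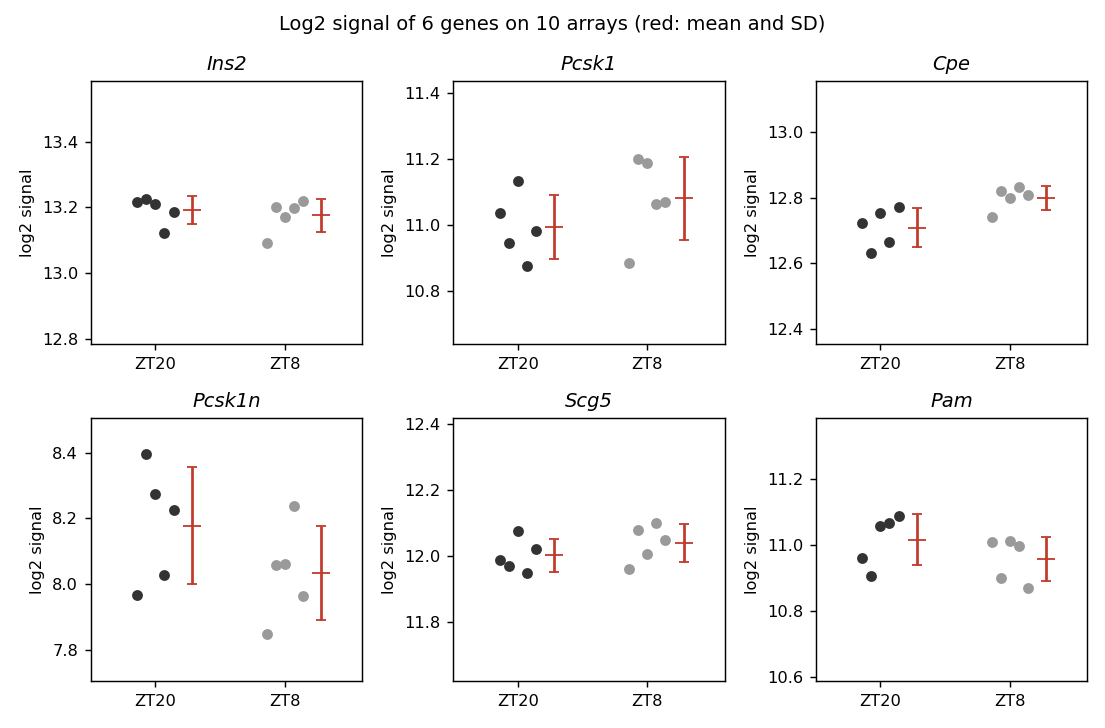
Log2 signal (vertical axis, every panel spanning 0.8) of the 6 measured genes on each array, with ZT20 left and ZT8 right. Points are arrays in replicate order and red bars show mean and SD (n = 5 each). The groups overlap in every panel, and in *Cpe* 3 ZT20 arrays lie below the lowest ZT8 array.

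*Pcsk1* encodes PC1, the convertase that makes the first cut of proinsulin. Its log2 signals were 11.04, 10.94, 11.13, 10.87 and 10.98 at ZT20, against 10.88, 11.20, 11.19, 11.07 and 11.07 at ZT8. The lowest array of each group, ZT20 replicate 4 and ZT8 replicate 1, lay at nearly the same level, and 4 of 5 ZT20 arrays were below the ZT8 mean. The means were 10.99 ± 0.097 at ZT20 and 11.08 ± 0.13 at ZT8 (SD, n = 5 each), with a difference of -0.09 (SE 0.069, 95% interval -0.24 to 0.06, limma adjusted p = 0.50).

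*Cpe*, the carboxypeptidase that trims the ends left by the convertases, had the smallest p of the 6. Its log2 signals were 12.72, 12.63, 12.75, 12.66 and 12.77 at ZT20, against 12.74, 12.82, 12.80, 12.83 and 12.81 at ZT8. All 5 ZT20 arrays lay below the ZT8 mean and 3 lay below the lowest ZT8 array, but the remaining 2 fell inside the ZT8 range. The mean was 12.71 ± 0.059 at ZT20 and 12.80 ± 0.036 at ZT8 (SD, n = 5 each), a difference of -0.09 (SE 0.045, 95% interval -0.19 to 0.0079). The exact two-sided permutation test of *Cpe* alone gave p = 0.024, where the smallest p that 5 against 5 allow is 0.0079, and the limma p was 0.068 unadjusted and 0.305 adjusted over all gene rows. Bright rows as a whole lay lower at ZT20 by as much, with a median of -0.09 in the 199 rows from 12 upwards and 84.4% of them negative, and the difference of *Cpe* equals the median of these rows.

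*Pcsk1n*, which encodes the PC1 inhibitor proSAAS, had the widest spread within groups of the 6 (pooled SD 0.16) and lay 5.31 to 5.79 below the brightest row of each array. Its log2 signals were 7.97, 8.40, 8.27, 8.03 and 8.22 at ZT20, against 7.85, 8.06, 8.06, 8.24 and 7.97 at ZT8. The ranges overlapped widely, and 2 ZT20 arrays exceeded the highest ZT8 array. Means were 8.18 ± 0.18 at ZT20 and 8.03 ± 0.14 at ZT8 (SD, n = 5 each), with a difference of 0.14 (SE 0.090, 95% interval -0.05 to 0.34, limma adjusted p = 0.40). This interval reaches 26.4% above no change and its upper end is the highest of the 6 measured genes.

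*Scg5* encodes 7B2, the chaperone of PC2. Its log2 signals were 11.99, 11.97, 12.08, 11.95 and 12.02 at ZT20, against 11.96, 12.08, 12.01, 12.10 and 12.05 at ZT8, and the groups were interleaved. The mean was 12.00 ± 0.050 at ZT20 and 12.04 ± 0.057 at ZT8 (SD, n = 5 each), a difference of -0.04 (SE 0.047, 95% interval -0.14 to 0.06, limma adjusted p = 0.68).

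*Pam* encodes the enzyme that amidates peptide ends, among them that of amylin, while insulin itself is not amidated. Its log2 signals were 10.960, 10.908, 11.059, 11.067 and 11.088 at ZT20, against 11.009, 10.899, 11.014, 10.998 and 10.870 at ZT8. The 3 highest arrays were all of ZT20, and the other 2 ZT20 arrays lay within the ZT8 range. The mean was 11.02 ± 0.078 at ZT20 and 10.96 ± 0.068 at ZT8 (SD, n = 5 each), a difference of 0.06 (SE 0.053, 95% interval -0.06 to 0.17, limma adjusted p = 0.56).

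The difference of a row went with its level on these arrays. The median difference between ZT20 and ZT8 was 0.07 in the 15108 rows under 6, 0.03 in the 9894 rows from 6 to 8, -0.03 in the 6092 rows from 8 to 10, -0.08 in the 1521 rows from 10 to 12 and -0.09 from 12 upwards. Against rows of their own level, *Pcsk1* and *Cpe* lay at or close to the median, while *Ins2*, *Pam*, *Scg5* and *Pcsk1n* lay above it. The rows that measure array background moved as well, with means from 4.24 to 4.33 at ZT20 and from 4.07 to 4.20 at ZT8, and their part in the differences was not tested. After quantile normalization, which gives all arrays the same distribution, the differences were 0.08 for *Ins2*, 0.0085 for *Pcsk1*, -0.03 for *Cpe*, 0.17 for *Pcsk1n*, 0.06 for *Scg5* and 0.16 for *Pam*, so *Pcsk1* and *Scg5* changed sign. The lowest adjusted p was then 0.15, for *Pam*.

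**Figure D2:**
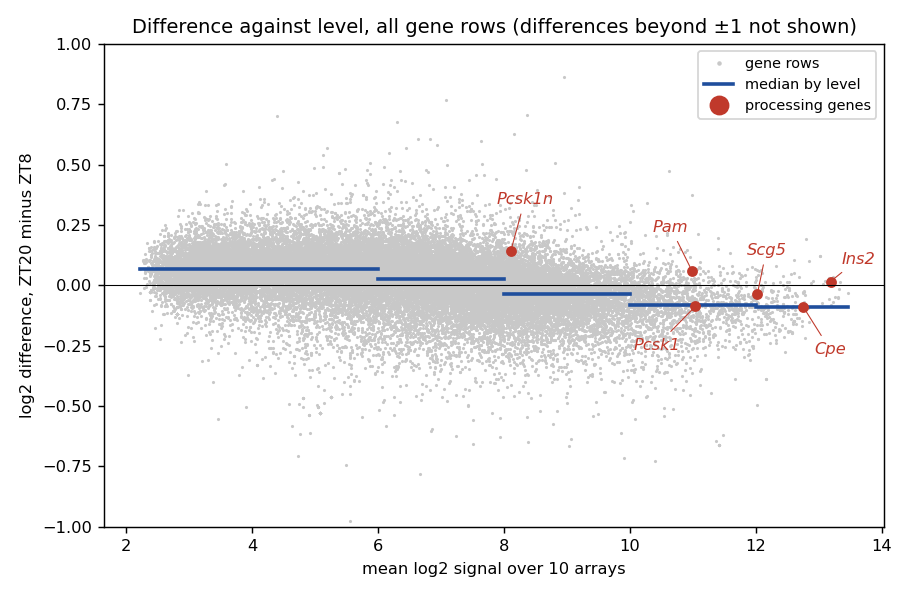
Log2 difference, ZT20 minus ZT8 (vertical axis), against the mean log2 signal over 10 arrays (horizontal axis) for all gene rows (grey), with the median by level (blue) and the 6 measured genes (red). The blue median falls to -0.09 among the brightest rows, where *Cpe* lies on it and *Ins2* above it.

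The convertase and its inhibitor were also compared within each array, which takes out any scaling shared by an array. A shift that goes with level is not taken out, and the mean levels of *Pcsk1* and *Pcsk1n* were 11.04 and 8.11. The median difference was -0.08 in rows from 10 to 12 and -0.03 from 8 to 10. After quantile normalization the differences of the 2 genes were 0.0085 and 0.17. The part of level in this comparison was not tested. The log2 signal of *Pcsk1* minus that of *Pcsk1n* averaged 2.82 ± 0.19 at ZT20, with a range from 2.55 to 3.07, and 3.05 ± 0.13 at ZT8, with a range from 2.83 to 3.14 (SD, n = 5 each). Only the change of this value between groups can be read, since the signals of different rows are not on a common scale. The change was -0.23 (95% interval -0.47 to 0.0064) and did not reach the threshold (exact two-sided permutation test, p = 0.063). It reached the threshold without ZT20 replicate 1 (difference -0.29, exact permutation p = 0.048) and without ZT8 replicate 4 (difference -0.28, exact permutation p = 0.032). Without any other single array it did not, with exact permutation p from 0.079 to 0.13. Tested alone in the same way, *Ins2*, *Pcsk1*, *Pcsk1n*, *Scg5* and *Pam* gave exact permutation p from 0.21 to 0.56. The within-array comparison of *Ins1* with *Ins2*, *Pcsk1* with *Pcsk2* and *Pcsk2* with *Scg5* could not be made.

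Across the 10 arrays only the rank relation of *Cpe* and *Scg5* passed after adjustment among the 15 pairs of measured genes, and that call was not stable. The values were Pearson's r = 0.78 (permutation p = 0.0075, adjusted p = 0.11 over the 15 pairs) and Spearman's rho = 0.85 (permutation p = 0.0027, adjusted p = 0.040). After quantile normalization rho was 0.63 (permutation adjusted p = 0.31). On deviations from the group means rho was 0.84 (permutation adjusted p = 0.027). All 10 deviations were permuted together although the group means had been removed, so each permutation p on deviations given here is approximate and tends to be too small. With array medians set equal, a setting chosen after seeing the data, rho was 0.92 (permutation adjusted p = 0.0059). Without 1 array at a time rho ran from 0.80 to 0.90 and the call was lost in 8 of 10 cases (permutation adjusted p from 0.032 to 0.19), all but those without ZT20 replicate 3 or ZT8 replicate 3. For *Pcsk1* with *Scg5* r was 0.73 (permutation p = 0.020) with rho = 0.77 (p = 0.012), and for *Pcsk1* with *Cpe* r was 0.70 (permutation p = 0.026) with rho = 0.71 (p = 0.027), with the lowest adjusted p at 0.091. Within each time r was positive, with 0.77 at ZT20 and 0.94 at ZT8 for *Cpe* and *Scg5*, 0.90 at ZT20 and 0.55 at ZT8 for *Pcsk1* and *Scg5*, and 0.66 at ZT20 and 0.74 at ZT8 for *Pcsk1* and *Cpe*. Without the 2 arrays farthest from the median r was 0.70, 0.51 and 0.65. *Pam* had negative r against *Ins2*, *Pcsk1*, *Cpe* and *Scg5*, of which that with *Ins2*, -0.49 (permutation p = 0.15, adjusted p = 0.33; rho = -0.65, permutation p = 0.049, adjusted p = 0.18), was the largest in size, and none passed. On deviations from the group means the rank relation of *Ins2* and *Pam* passed (rho = -0.88, permutation adjusted p = 0.024), while rho was -0.04 after quantile normalization and 0.0061 with array medians set equal.

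Islet samples can differ in how much of their RNA comes from β-cells, and in bulk samples fewer cells of a type and less RNA per cell cannot be told apart. The β-cell markers gave signal at both times, as with *Ucn3*, which encodes urocortin 3, at means of 11.45 at ZT20 and 11.54 at ZT8. Of the 8 β-cell markers 7 had a negative difference and none passed limma over all gene rows. Of all gene rows, 65.4% were negative from level 8 to 10, 82.8% from 10 to 12 and 84.4% from 12 upwards. The markers had a median difference of -0.08, beside -0.08 over all rows from 10 to 12. It was -0.15 without ZT8 replicate 1, -0.04 without ZT20 replicate 4, -0.05 without ZT8 replicate 5 and -0.0034 after quantile normalization. The mean log2 signal of the markers ran from 10.30 to 10.64 at ZT20 and from 10.22 to 10.75 at ZT8. Its lowest values were in ZT20 replicate 4 and ZT8 replicate 1, and its part in the differences was not tested. *Scg5* and *Pcsk1* varied with this mean over the 10 arrays. For *Scg5* r was 0.83 (permutation p = 0.0019, adjusted p = 0.020 over 12 relations; rho = 0.82, permutation p = 0.0061, adjusted p = 0.043), with r of 0.79 within ZT20, 0.86 within ZT8 and 0.80 without the 2 farthest arrays. For *Pcsk1* r was 0.81 (permutation p = 0.0034, adjusted p = 0.020; rho = 0.81, permutation p = 0.0072, adjusted p = 0.043), with r of 0.86 within ZT20, 0.78 within ZT8 and 0.58 without the 2 farthest arrays. *Ins2* had r = 0.84 (permutation p = 0.0087, adjusted p = 0.035; rho = 0.58, permutation p = 0.089, adjusted p = 0.18), with r of 0.88 within ZT20 and 0.99 within ZT8. But without the 2 farthest arrays r fell to 0.03, so that relation rests on ZT20 replicate 4 and ZT8 replicate 1. Leaving out ZT20 replicate 4 ended the call for *Scg5*, *Pcsk1* and *Ins2* (permutation adjusted p = 0.054, 0.074 and 0.159). Leaving out ZT8 replicate 1 ended it for *Pcsk1* and *Ins2* (permutation adjusted p = 0.055 and 0.165), and leaving out ZT20 replicate 5 ended it for *Ins2* (permutation adjusted p = 0.060). Quantile normalization ended it for *Scg5* (r = 0.67, permutation adjusted p = 0.061). *Slc30a8* and *Iapp* belong both to these markers and to the pathway lists given further on.

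**Figure D3:**
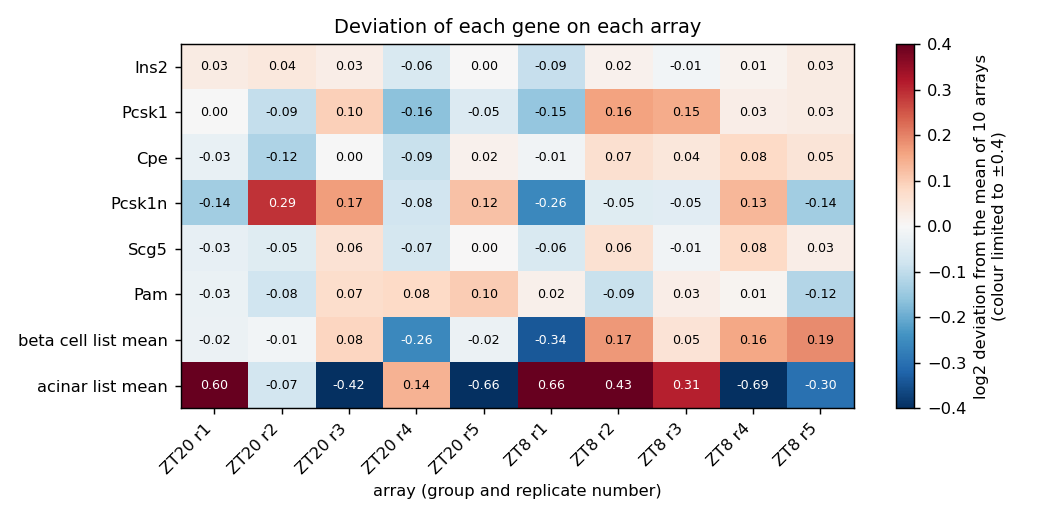
Deviation of log2 signal from the mean of 10 arrays (colour and printed value, colour limited to ±0.4) for each measured gene and for the mean of the β-cell and acinar marker lists (rows) on each array (columns, ZT20 left and ZT8 right, r for replicate). ZT20 r4 and ZT8 r1 are low in the β-cell list, in *Pcsk1*, *Scg5* and *Ins2*, while the acinar list varies far more than any measured gene.

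Acinar cells, the exocrine cells that surround islets, gave signal that varied widely between arrays of both groups. The mean of 6 measured acinar enzyme and factor genes ran from 10.83 to 12.08 at ZT20 and from 10.80 to 12.15 at ZT8, and *Ctrb1*, a chymotrypsinogen gene, averaged 13.45 at ZT20 and 13.48 at ZT8. All 6 had a negative difference, beside 82.8% of all rows from level 10 to 12 and 84.4% of those from 12 upwards. *Ptf1a*, with means of 6.35 at ZT20 and 6.56 at ZT8, lay lower, and 39.4% of rows from 6 to 8 were negative. The median of the 6 was -0.16, and none passed limma. That median rests on single arrays: without 1 array at a time it ran from -0.36 (without ZT8 replicate 4) to -0.01 (without ZT8 replicate 1), with -0.02 without ZT20 replicate 5, and it moved by over 1.5 times in 8 of 10 cases. The part of acinar RNA in the differences of the genes described here was not tested. *Pcsk1n* had a negative relation with this mean (r = -0.67, permutation p = 0.037, adjusted p = 0.11; rho = -0.64, permutation p = 0.055, adjusted p = 0.14), and r was -0.61 without the 2 farthest arrays. No relation of a measured gene with the acinar mean passed after adjustment. Of the 42 measured genes in 10 lists of cell type markers none passed limma between ZT20 and ZT8 over all gene rows, with 4 of 42 at an unadjusted p under 0.05, beside 18.5% of all rows. These 4 were higher at ZT20, and over all rows 38.1% of differences were negative.

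The other genes of the pathway were counted in 5 lists, of which 37 of 39 genes had a row. None passed limma in either direction over all gene rows (lowest adjusted p = 0.17), with 3 higher and 2 lower of 37 at an unadjusted p under 0.05, beside 18.5% of all rows. Of 6 measured convertases outside the granule pair, which cut precursors in the Golgi, at the cell surface or in other tissues, 4 were positive and 2 negative, with a median difference of 0.02. *Mbtps1*, the site-1 protease of the Golgi, had means of 8.74 ± 0.081 at ZT20 and 8.75 ± 0.13 at ZT8, and *Furin*, the convertase of the constitutive pathway, 8.35 ± 0.058 at ZT20 and 8.30 ± 0.067 at ZT8 (SD, n = 5 each). Of 7 carboxypeptidases related to *Cpe*, 6 had a positive difference, with a median of 0.09 and 3 at an unadjusted p under 0.05, beside 18.5% of all rows. Over all rows 38.1% of differences were negative. By level it was 21.1% under 6, 39.4% from 6 to 8 and 65.4% from 8 to 10, and these genes lay in all of these ranges. *Cpn1*, a plasma carboxypeptidase, differed by 0.05 (95% interval -0.11 to 0.22, limma adjusted p = 0.72) and *Cpd*, the carboxypeptidase of the Golgi, by -0.07 (-0.17 to 0.04, adjusted p = 0.46).

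Of 8 measured folding genes of the endoplasmic reticulum, 3 were positive and 5 negative, with a median of -0.04. *Hsp90b1*, the chaperone GRP94, had means of 12.14 ± 0.078 at ZT20 and 12.24 ± 0.053 at ZT8, a difference of -0.10 (95% interval -0.21 to 0.0099), and *P4hb*, the protein disulfide isomerase, 11.75 ± 0.053 at ZT20 and 11.70 ± 0.070 at ZT8, a difference of 0.05 (limma adjusted p = 0.31 and 0.59). Among 10 other prohormones and granins differences ran from -0.09 to 0.12, with a median of 0.04. The hormone genes *Ppy*, of pancreatic polypeptide, and *Iapp*, of amylin, were close to the array maximum like *Ins2*, and differed by 0.02 and -0.07 (limma adjusted p = 0.86 and 0.39). Among 6 further genes the zinc transporter gene *Slc30a8*, which loads granules with the zinc that insulin crystals need, had 11.72 ± 0.19 at ZT20 and 11.95 ± 0.30 at ZT8 (SD, n = 5 each), with a difference of -0.24 (95% interval -0.52 to 0.05, limma adjusted p = 0.35). *Ide*, the insulin-degrading enzyme, averaged 9.97 ± 0.097 at ZT20 and 10.10 ± 0.046 at ZT8, a difference of -0.13 (95% interval -0.25 to -0.01, limma unadjusted p = 0.031 and adjusted p = 0.23). At the level of *Ide* and *Slc30a8*, from 10 to 12, all rows had a median difference of -0.08 and 82.8% were negative. At that of *Hsp90b1*, from 12 upwards, the median was -0.09 and 84.4% were negative.

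**Figure D4:**
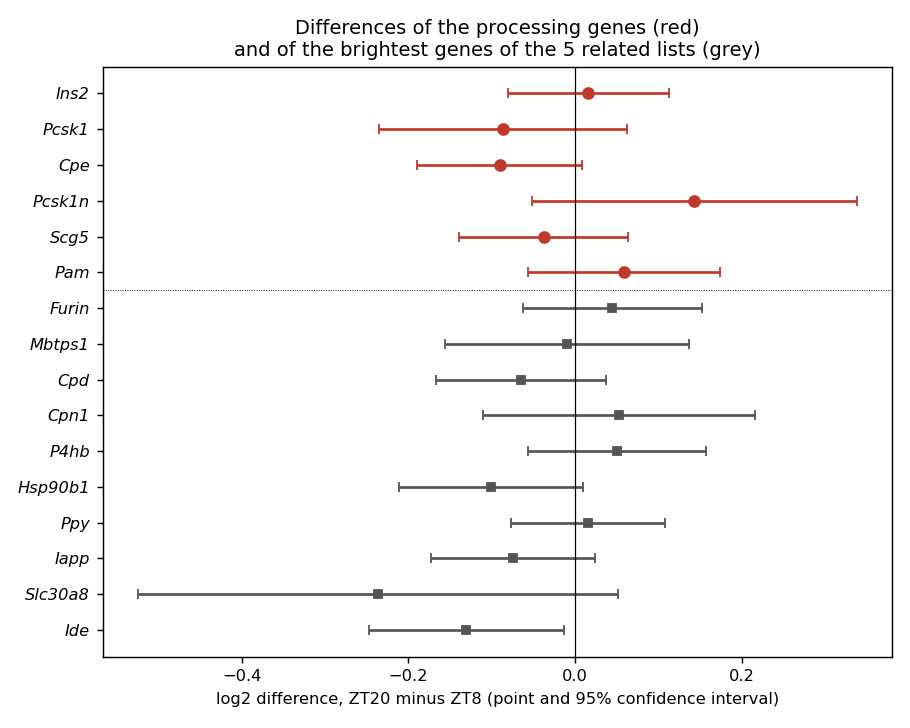
Log2 difference, ZT20 minus ZT8 (horizontal axis), with its 95% confidence interval from limma for the 6 measured genes (red) and the brightest genes of the 5 related lists (grey). All 6 red intervals include 0, and of the grey ones that of *Ide* does not. All rows at the level of *Ide*, from 10 to 12, had a median difference of -0.08.

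The rows whose pattern over the 10 arrays was most like that of each gene were sought among 15505 other rows that name 1 gene and lie above the median level, with Pearson's r as a description. For *Ins2* these were *Atg101*, *Rab40b* and *Lrsam1* (r from 0.94 to 0.97), for *Pcsk1* they were *Tmem65*, *Gm6568* and *Ndufb4b* (0.95 to 0.97), and for *Cpe* they were *Znrf2*, *Katna1* and *Micu3* (0.97 each). *Pcsk1n* was most like *Dner*, *Rbmx2* and *C1galt1c1* (0.95 to 0.98), *Scg5* most like *Prorsd1*, *Scyl3* and *Fbxo8* (0.95 to 0.96), and *Pam* most like *Gla*, *Oxtr* and *Stt3b* (0.90 to 0.92). After quantile normalization 11 of the 18 values of r moved by at least 0.1, to between 0.27 and 0.48 for the 3 rows named for *Cpe* and between 0.39 and 0.55 for those of *Scg5*. With array medians set equal 1 of 18 moved so far, and on deviations from the group means 0 of 18. No gene of the hormone processing pathway was among the 18 named. With only 3 of 15505 rows named per gene, that absence cannot be read as a result. The values of r are the highest of 15505 rows over 10 arrays, so their size owes in part to that choice.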

How the data were processed

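RNA of 10 islet samples was measured on 1 Affymetrix array each. The deposited log2 values are array signals per transcript cluster, made by the authors with GCRMA, by a heading in the supplement, and the notes of the submitters on processing list Affymetrix Expression Console with no version. The array named in the methods differs from the transcript array whose rows the table lists. Scanner files were not used here, so dim or saturated spots could not be marked. The table holds 72688 rows, of which 65956 are transcript rows and 32814 name at least 1 gene (30921 exactly 1, 1893 several) in the array's annotation. No value was missing.

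Values were used as deposited, with no filter on dim rows. Differences were estimated as ZT20 minus ZT8 with limma 3.58.1 in R 4.3.3, two-sided, with Benjamini-Hochberg adjustment over the 32814 rows. Single genes were also tested by exact permutation, and correlations by 100000 permutations with adjustment over 15 pairs of the 6 measured genes, or 12 relations with marker means that were chosen after the values were seen. The limma step was tested on simulated data. Python 3.11.15, scipy 1.17.1 and matplotlib 3.10.9 were used. The genes and lists were chosen with earlier results of these data known. Each of the 5 pathway lists names its 2 brightest genes and any that passed, and the marker genes named were chosen after their values were seen. Number, spread and level of the arrays limit the precision. Alternatives were 2 scalings, all or only bright rows, a replicate block, other variance settings, the methods' t-test and each array left out. Upstream sequences are from RefSeq.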

Additional observations from a re-analysis of the deposited data

How the results depend on the processing

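None of the 6 measured genes passed under any of 18 alternatives, with adjusted p from 0.15 to 0.96, and differences between -0.14 and 0.20 over all of them. The sign changed for *Ins2* with arrays centred on their medians (-0.032) and without ZT8 replicate 1 (-0.0053), and for *Pcsk1* (0.0085) and *Scg5* (0.064) after quantile normalization. Without 1 array at a time the differences ran from -0.0053 to 0.033 for *Ins2*. *Pcsk1* minus *Pcsk1n* ran from -0.29 to -0.16 without 1 array at a time. With the replicate number as a block its difference was -0.23 with p = 0.25 by an exact sign permutation test, where 5 pairs allow no p below 0.0625. Among list genes the sign changed after quantile normalization for *Cpd* (0.0021), *Hsp90b1* (0.0035) and *Mbtps1* (0.032), with arrays centred for *Furin* (-0.0030) and *Ppy* (-0.032), and without ZT8 replicate 1 for *Cpn1*. Without 1 array at a time *Cpn1* ran from -0.016 to 0.089 and *Mbtps1* from -0.055 to 0.029, with the sign changed for 6 arrays. Median differences of lists were unstable: without 1 array at a time 12 of 15 moved by over 1.5 times and 3 changed sign (alpha cell, duct and endothelial), and after quantile normalization 4 changed sign, with the folding list at 0.058 and the delta cell list at 0.13.

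The number of gene rows called, 244, was 603 with arrays centred, 52 after quantile normalization, 1 over all transcript rows, 467 among bright rows, 51 with the replicate block, 516 with a trended and robust prior, 830 with array weights and 2 by the methods' t-test. It was 427, 3, 54, 1 and 5 when ZT20 replicates 1 to 5 were left out in turn, and 54, 1, 1, 1 and 7 for ZT8. The causes were not tested. Same-numbered arrays deviated together in replicates 1, 2 and 5 (r = 0.31, 0.28 and 0.35) but not in 3 and 4 (-0.13 and -0.12), so the numbers were not taken as pairs, and the block changed no call of a gene named here. Pairs of measured genes correlated at an adjusted p under 0.05 numbered 0 by Pearson's r, and 6 with arrays centred. Centring for this count and leaving out arrays for the rank relation of *Cpe* and *Scg5* were chosen after seeing the data. The mean over all rows of a gene gave nothing further, since each gene had 1 row. The number of arrays limits the precision, and signals near the array maximum limit what can be read for *Ins2*.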

Other observations

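The carboxypeptidases related to *Cpe* held 3 of the 5 pathway genes at an unadjusted p under 0.05, and they are named here after their values were seen. Of all gene rows 18.5% lay at such a p, and rows at these levels lay higher at ZT20 as a whole, with a median difference of 0.07 under 6 and 0.03 from 6 to 8. *Aebp1*, which encodes a carboxypeptidase-like protein of the extracellular matrix, averaged 7.15 ± 0.18 at ZT20 and 6.91 ± 0.093 at ZT8 on the log2 scale (SD, n = 5 each), a difference of 0.24 (limma adjusted p = 0.17). *Cpxm2*, a further member of this family, differed by 0.19 (limma adjusted p = 0.17) and *Cpm*, a carboxypeptidase of the cell surface, by 0.17 (adjusted p = 0.24). In the same direction lay the collagen genes *Col3a1* and *Col1a1*, made by stellate cells and fibroblasts, with differences of 0.20 and 0.19 (limma adjusted p = 0.17 and 0.27). The mean of the 4 measured stellate and fibroblast markers ran from 7.81 to 8.21 at ZT20 and from 7.65 to 8.05 at ZT8, and its part in the differences of these carboxypeptidase genes was not tested. A difference of the opposite sign was found for *Pdia3*, a disulfide isomerase of the endoplasmic reticulum, with 11.31 ± 0.063 at ZT20 and 11.44 ± 0.042 at ZT8 (difference -0.13, limma adjusted p = 0.17). Rows from 10 to 12 lay lower at ZT20 as a whole, with a median difference of -0.08 and 82.8% of them negative. None of the genes named in this paragraph passed over all gene rows.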
